A study of Mus musculus with 24 samples.

Results

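Slc25 carriers sit in the mitochondrial inner membrane and exchange nucleotides, phosphate, carnitine esters, amino acids, organic acids, coenzymes and iron between cytosol and matrix. The uncoupling proteins belong to the same family and let protons or metabolite anions return across that membrane without making ATP. In the fasted liver these carriers link fatty acid oxidation, the urea cycle, gluconeogenesis and ketogenesis, whose enzymes are divided between matrix and cytosol. Members were the protein-coding genes of the count table whose symbol is Slc25a followed by a number, or Ucp1, Ucp2 or Ucp3, which gave 50 of 35275 genes.

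Their transcripts were measured by RNA-seq of livers from chow-fed male mice, 8 to 10 weeks old, after a 24 h fast, on a C57BL/6 background, in 24 libraries of 4 per group. Control mice were littermates with floxed Tsc1 and Cpt2 alleles according to the study's methods, and their libraries are labelled wild type. Tsc1L-/- livers lacked Tsc1, an inhibitor of mTORC1, Cpt2L-/- livers lacked Cpt2, the inner membrane carnitine palmitoyltransferase needed to oxidize long-chain fatty acids, and DKO livers lacked both. Those deletions were driven by Cre under the albumin promoter, so they fall in hepatocytes, and cells of other types keep the genes. Ppara KO mice lacked Ppara, the receptor that induces fatty acid oxidation genes in fasting, and Cpt2L-/- Ppara KO mice lacked both Ppara and liver Cpt2. How the Ppara allele was made, and whether its loss was limited to the liver, is not stated in the labels. The study's methods do not describe the Ppara mice, so whether the control mice were their littermates is not known. In comparisons with Ppara mice a difference of colony cannot be told apart from that of genotype. Bulk liver RNA cannot tell fewer cells of a type from less RNA per cell.

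Libraries held 14470968 to 20371204 counts. Tsc1 was at 36.8 to 39.9 CPM (read counts scaled to the TMM-adjusted library total) in control, 18 to 28.6 in Tsc1L-/- and 15.5 to 18.1 in DKO. Cpt2 counts did not separate Cpt2L-/- livers (80.3 to 105 CPM) from control livers (87.8 to 104 CPM), so they check no label. Ppara was at 213 to 276 CPM in control, at 13 to 45.2 CPM in Ppara KO and at 26.2 to 91.9 CPM in Cpt2L-/- Ppara KO. The highest of these, 91.9 CPM, was Cpt2L-/- Ppara KO replicate 1, which stood apart in several members too, with Slc25a20 at 271 CPM against 57.1 to 94.6 CPM in the other 3. Ppara KO replicates 2 and 3 stood apart from replicates 1 and 4 in Slc25a47, Slc25a51 and Slc25a29. Counts of calls are given with and without these 3 libraries, as are the named differences that lean on them. The summed CPM of 6 hepatocyte markers had a median of 67500 in control, 53600 in Tsc1L-/-, 50500 in Cpt2L-/-, 30100 in DKO, 68800 in Ppara KO and 47200 in Cpt2L-/- Ppara KO. Alb was the largest part, with means of 43400 CPM in control and 30000 in Tsc1L-/-. Apoa1 and Tat were also lower in Tsc1L-/-, but Ttr (3920 against 2890), Serpina1c (616 against 540) and Cps1 (5260 against 5070) were higher. In Ppara KO, Tat (7370 against 3160) and Cps1 (8160) were higher and the others lower, and in DKO all were lower. The part of these markers in the differences below was not tested.

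The 4 promoters printed here belong to the carnitine carrier and Slc25a34, which fell most in Ppara KO among the members, and to the neighbouring Ucp2 and Ucp3, which were higher in Cpt2L-/- and DKO than in control. They are RefSeq sequences of GRCm38.p6, from 250 bases before to 50 bases after the start of transcription, written on the gene's own strand, and capitals mark AGGTCA or its reverse complement, the hexamer that receptors of this class bind in pairs. Slc25a20 lies at chr9:108661886-108662185 on the plus strand, Slc25a34 at chr4:141623785-141624084 on the minus strand, Ucp2 at chr7:100493108-100493407 and Ucp3 at chr7:100472741-100473040, both on the plus strand.
Slc25a20: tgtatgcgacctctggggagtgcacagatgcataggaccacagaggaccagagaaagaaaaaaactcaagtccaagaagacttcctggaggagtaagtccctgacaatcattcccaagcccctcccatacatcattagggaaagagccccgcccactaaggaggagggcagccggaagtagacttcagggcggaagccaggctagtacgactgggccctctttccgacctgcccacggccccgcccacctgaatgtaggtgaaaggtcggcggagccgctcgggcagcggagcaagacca
Slc25a34: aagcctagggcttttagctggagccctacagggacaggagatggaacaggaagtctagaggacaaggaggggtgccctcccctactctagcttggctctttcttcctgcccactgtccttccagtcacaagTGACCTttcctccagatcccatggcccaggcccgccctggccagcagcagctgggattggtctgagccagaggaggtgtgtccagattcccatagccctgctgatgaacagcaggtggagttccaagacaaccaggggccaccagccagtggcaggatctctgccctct
Ucp2: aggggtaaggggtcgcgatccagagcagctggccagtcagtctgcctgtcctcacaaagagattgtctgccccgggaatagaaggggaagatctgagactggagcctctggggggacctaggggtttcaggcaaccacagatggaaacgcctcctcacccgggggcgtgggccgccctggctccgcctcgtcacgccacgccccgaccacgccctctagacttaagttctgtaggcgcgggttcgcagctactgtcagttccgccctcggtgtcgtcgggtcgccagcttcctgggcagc
Ucp3: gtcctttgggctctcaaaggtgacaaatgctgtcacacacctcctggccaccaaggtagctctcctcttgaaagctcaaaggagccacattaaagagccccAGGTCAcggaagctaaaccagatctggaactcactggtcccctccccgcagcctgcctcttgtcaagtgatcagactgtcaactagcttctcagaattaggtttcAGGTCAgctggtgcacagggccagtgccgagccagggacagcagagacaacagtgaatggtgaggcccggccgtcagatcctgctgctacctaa
On either strand the hexamer occurred in 16.3% of 32851 promoters and in 15.4% of the 39 members with a promoter sequence, namely Slc25a34, Slc25a39, Slc25a45, Slc25a47, Ucp1 and Ucp3. Ucp3 held it at 2 places, starting 149 and 44 bases before the start site. Pairs in a row with 1 base between them, AGGTCANAGGTCA, were in 13 of all promoters (0.0396%) and in 0 of the 39. A looser form, with the fourth base of each hexamer open, was in 0.381% of all promoters and also in 0 of the 39. Absence of these letters says nothing of sites outside the window or of other spellings.

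Levels between genes were compared per length, as the deposited FPKM. In control liver 8 of the 50 members were at 100 FPKM or more, 16 between 10 and 100, 13 between 1 and 10, and 13 below 1. Slc25a47, a carrier found mainly in liver, led with 556 ± 72.1 FPKM (SD, n = 4), followed by Slc25a5, the main adenine nucleotide translocase of liver, with 375 ± 31 and Slc25a39, needed for mitochondrial glutathione uptake, with 300 ± 29.7. The ranges of these 3 did not overlap. From the fourth place on, every member shown overlapped its next neighbour: Slc25a15 at 140 ± 43.5, Slc25a13 at 130 ± 5.4, Slc25a20 at 123 ± 7.88, Slc25a10 at 119 ± 22.6 and Slc25a1 at 117 ± 10.8 FPKM.

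Of the 50 members, 42 were tested in all 10 comparisons, and Slc25a35 and Ucp3 in 8 of the 10. Another 6 passed the filter on low counts in no comparison: Slc25a2, Slc25a31, Slc25a41, Slc25a43, Slc25a54 and Ucp1. Slc25a41 and Slc25a54 had 0 counts in every library. Ucp1, the uncoupling protein of brown fat, had 2 counts in all, both in Cpt2L-/- replicate 1. Slc25a31, the translocase of male germ cells, had 15 counts over 10 libraries. Exons of 8 members overlap a protein-coding gene on the opposite strand, among them Ucp2 with Dnajb13 (305 bases), Slc25a35 with Rangrf (1151 bases) and Slc25a21 with Pax9 (189 bases), and whether counting used strand is not given in the sources used here. Slc25a5 has a pseudogene, Slc25a5-ps, whose reads could be split with it.

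A call is a difference with an adjusted p-value under 0.05. In Tsc1L-/- against control, 3 of 44 tested members were higher and 3 lower, where 4.16% of all 13641 genes tested were higher and 2.48% lower. In Cpt2L-/- against control 9 were higher and 8 lower, beside 16.2% and 14.9% of all genes. In DKO against control 11 were higher and 10 lower, beside 19.3% and 17.1%. DKO against Cpt2L-/- gave 7 higher and 4 lower, beside 10.9% and 7.40%, and DKO against Tsc1L-/- gave 11 higher and 10 lower, beside 16.9% and 15.2%. Ppara KO against control gave 4 higher and 9 lower of 43 tested, beside 14.8% and 12.7% of 12955 genes, and 2 higher and 11 lower without Ppara KO replicates 2 and 3, where 2841 of 13609 genes were called. Cpt2L-/- Ppara KO against Cpt2L-/- gave 2 higher and 4 lower of 43, beside 6.88% and 6.10% of 12936 genes. Without Cpt2L-/- Ppara KO replicate 1 this last comparison gave 12 calls, 4 higher and 8 lower, where the calls over all genes also went from 1679 of 12936 to 2364 of 13155. Cpt2L-/- Ppara KO against Ppara KO gave 0 of 42 in edgeR, beside 0.462% and 0.407% of 12784 genes, with 13 members and 3829 of all 12784 genes at an unadjusted p under 0.05, and with 4 calls in DESeq2, where 2028 of all 12784 genes were called against 111 in edgeR. The members stayed at 0 calls in edgeR without Cpt2L-/- Ppara KO replicate 1, where 12 of all 13052 genes were called. They also stayed at 0 without Ppara KO replicates 2 and 3, where 0 of all 13460 genes were called. The median log2 fold change of the members lay between -0.06 and 0.13 in these 8 comparisons. So members went both ways in the 7 comparisons with calls.

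**Figure D1:**
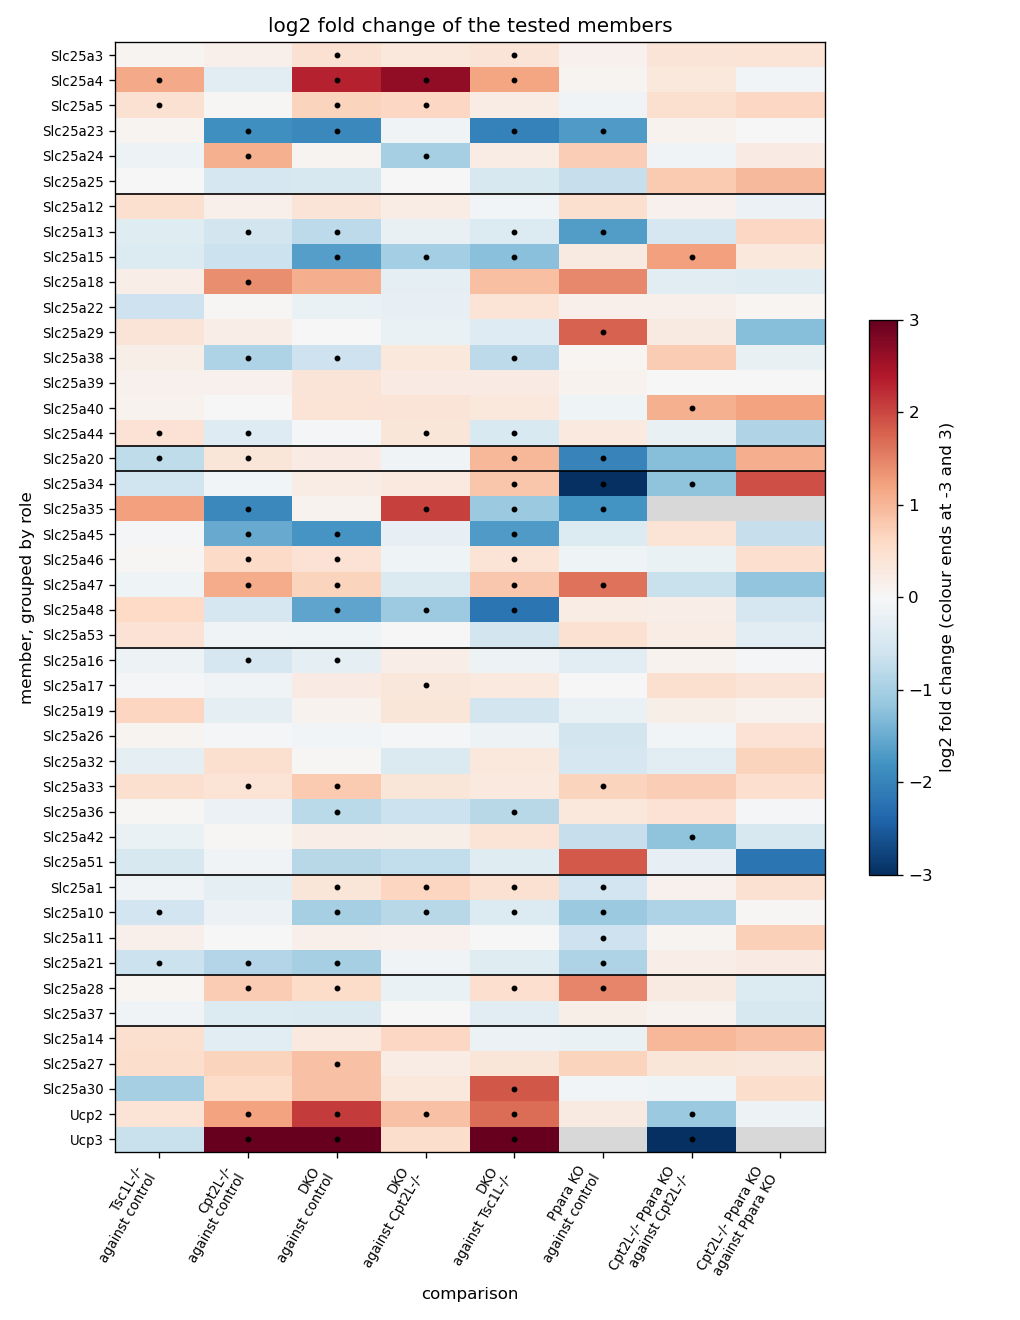
Log2 fold change of the 44 tested members (rows, grouped by role) in 8 comparisons (columns), with red for higher and blue for lower. The colour scale ends at -3 and 3 (log2), black dots mark an adjusted p-value under 0.05, and grey cells were not tested. Ucp3 and Ucp2 are red in Cpt2L-/- against control, DKO against control and DKO against Tsc1L-/-, and Slc25a34 and Slc25a20 are blue in Ppara KO.

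Ucp2 and Ucp3 were higher in Cpt2L-/- and DKO than in control. Ucp2 exports C4 metabolites and is widely expressed, and Ucp3 is best known from muscle and brown fat. Ucp3 was at 0, 0, 0 and 0.116 CPM in control, and at 0, 0, 0 and 0.0623 CPM in Tsc1L-/-. Cpt2L-/- livers had 3.31, 5.96, 4.25 and 5.34 CPM and DKO livers 5.76, 7.72, 4.76 and 8.72 CPM. Every library of these last groups was above every control library. Summed over libraries, 322 Ucp3 counts in Cpt2L-/- stood against 2 in control, a ratio of 160 with a 95% exact interval of 43.8 to 1320 that covers counting error only. DKO had 484 counts, 234 times control on the CPM scale (64.5 to 1940). Ucp3 passed the filter on low counts only through the Cpt2L-/- and DKO libraries, so a test of it adds nothing to these values, and its calls are among the counts above. DKO and Cpt2L-/- overlapped in Ucp3.

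In mice without Ppara, Ucp3 was nearly absent. Its 4 Ppara KO libraries had 0 counts, and Cpt2L-/- Ppara KO had 0.579, 0, 0 and 0.0466 CPM, with 8 of the 9 counts in replicate 1. The pooled counts of Cpt2L-/- and Cpt2L-/- Ppara KO, 322 against 9, had a ratio of 34.4 (17.9 to 75.9), and without replicate 1 the other 3 libraries held 1 count. Skeletal muscle markers (Acta1, Ckm and Myh4), of a tissue rich in Ucp3, summed to at most 0.317 CPM in Cpt2L-/- and 0.114 CPM in DKO, and in Cpt2L-/- Ppara KO to 16.1 CPM in replicate 4, where Ucp3 was at 0.0466 CPM, and 0 in the other 3. Adipocyte markers summed to at most 8.3 CPM in Cpt2L-/- and 1.94 in DKO, against 0.463 in control. The part of either tissue was not tested.

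Ucp2 was at 58.2, 75.2, 44.5 and 44.9 CPM in control and at 49.3, 98.6, 70.5 and 80.1 in Tsc1L-/-, which overlap. Cpt2L-/- livers had 128, 130, 138 and 129 CPM and DKO livers 245, 222, 231 and 263 CPM. The order control, Cpt2L-/-, DKO held with no overlap. Ucp2 was 2.31-fold higher in Cpt2L-/- (log2 1.21 ± 0.18, adjusted p = 8.37e-05), 4.29-fold higher in DKO than in control (log2 2.10 ± 0.19, adjusted p = 3.39e-07) and 1.85-fold higher in DKO than in Cpt2L-/- (adjusted p = 0.00296). Without Ppara the level in Cpt2 loss was 84.4, 52.8, 68.7 and 40.4 CPM, below every Cpt2L-/- library, a log2 difference of -1.10 ± 0.22 (adjusted p = 0.0104), or -1.28 ± 0.18 (adjusted p = 0.00044) without replicate 1. Ppara KO alone had 44.2, 105, 78.5 and 39.3 CPM, with replicates 2 and 3 high. Kupffer cells and macrophages express Ucp2, and the summed CPM of 8 of their markers was 233 to 389 in control, 216 to 403 in Cpt2L-/- and 169 to 286 in DKO. The mean of 7 of the 8 was lower in DKO than in control, from 87 to 45.8 CPM for Clec4f, 103 to 49.4 for Cd5l, 61.5 to 28.5 for Csf1r, 21.6 to 11.3 for Vsig4, 16.8 to 7.34 for Emr1, 7.13 to 3.54 for Timd4 and 9.81 to 7.14 for Marco. The other, Cd68, was at 6.32 to 9.69 CPM in control, 22.6 to 50.6 in Cpt2L-/- and 34.6 to 126 in DKO, and the part of these cells in the Ucp2 values was not tested. Ucp3 and Ucp2 are neighbours on chromosome 7, 6905 bases apart and on the same strand.

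**Figure D2:**
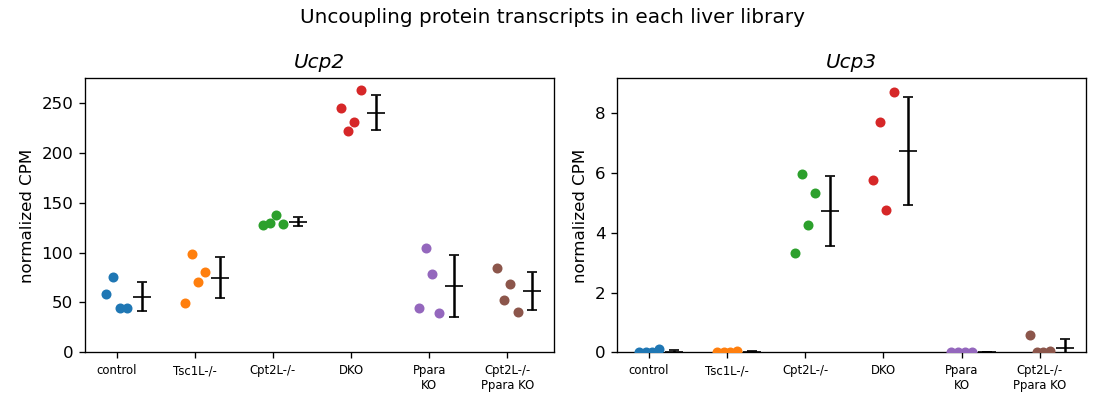
Normalized CPM of Ucp2 and Ucp3 in each library (points) of the 6 groups, with the group mean and SD in black beside them (bars that pass below 0 end at the axis). Ucp3 stays near 0 in control, Tsc1L-/-, Ppara KO and Cpt2L-/- Ppara KO, and Ucp2 has its 4 highest libraries in DKO, from 222 to 263 CPM.

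Of the close relatives of the uncoupling proteins, Slc25a30 was at 15, 8.82, 36 and 28.7 CPM in Tsc1L-/- and at 64.1, 83.7, 69.9 and 109 CPM in DKO, a log2 difference of 1.87 ± 0.46 (adjusted p = 0.00729). Control livers ranged from 22.7 to 91.1 CPM, the highest of them far from the rest. Slc25a27, also called Ucp4, was 1.85-fold higher in DKO than in control (adjusted p = 0.0242, lost in 3 of 13 alternatives), at 2.67 to 4.57 against 1.73 to 2 CPM. Slc25a14, known as Ucp5, was called in 0 comparisons, with group means of 1.61 to 3.3 CPM.

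Slc25a20, the carnitine-acylcarnitine translocase that brings acylcarnitines to Cpt2, fell in Ppara KO. Control livers had 217, 238, 224 and 230 CPM and Ppara KO livers 62.1, 52.9, 61.2 and 52.8 CPM. Ppara KO was 3.99-fold lower (log2 -2.0 ± 0.13, adjusted p = 2.91e-05), and the value was -2.0 as well without replicates 2 and 3. Tsc1L-/- livers, at 142, 126, 109 and 160 CPM, lay below every control library (log2 -0.76 ± 0.13, adjusted p = 0.0015, but 0.205 with all 24 libraries in the fit). Cpt2L-/- livers had 237, 318, 320 and 312 CPM and DKO livers 244, 262, 268 and 308 CPM. Cpt2L-/- was 1.28-fold higher than control with adjusted p = 0.0419, a call lost in 8 of 13 alternatives. DKO was 2.0-fold higher than Tsc1L-/- (adjusted p = 1.87e-05).

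In Cpt2L-/- Ppara KO, Slc25a20 was at 271, 94.6, 71.2 and 57.1 CPM. With replicate 1 the difference from Cpt2L-/- was not called (log2 -1.28), and without it the difference was -2.0 ± 0.21 (adjusted p = 3.97e-05). The enzymes and the carnitine importer of the same shuttle were a list of 7 genes. All 5 tested in Ppara KO were lower, beside 12.7% of all genes: Crot by 2.82, Slc22a5 by 0.97, Crat by 0.87, Cpt1a by 0.85 and Cpt2 by 0.76 on the log2 scale. Without Ppara KO replicates 2 and 3, 3 of the 5 were called lower, where 2841 of all 13609 genes were called. Cpt1a (log2 -0.69, adjusted p = 0.0671) and Cpt2 (log2 -0.46, adjusted p = 0.222) were not. In Cpt2L-/- against control 3 of 7 were higher and 0 lower, beside 16.2% and 14.9% of all genes. They were Crat at log2 1.34, the importer Slc22a5 at 1.26 and Cpt1b, the muscle form of the outer enzyme, at 1.63. Cpt1b was too low to be tested with control and Ppara KO libraries alone and needed libraries of other groups to pass the filter here. Its call therefore adds nothing to the list.

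Slc25a34, whose substrate is not settled, had the largest fall of any member in Ppara KO, from 20.1, 19.1, 16.1 and 9.95 CPM in control to 2.19, 2.94, 1.24 and 0.618 CPM. Its groups did not overlap, and the difference was 9.31-fold (log2 -3.22 ± 0.42, adjusted p = 0.000717), or log2 -3.48 ± 0.50 without Ppara KO replicates 2 and 3. Cpt2L-/- Ppara KO livers held 8.98, 3.76, 9.38 and 5.31 CPM, 2.32-fold under Cpt2L-/- (adjusted p = 0.0352, lost in 6 of 13 alternatives). Without replicate 1 that difference was log2 -1.36 ± 0.33 (adjusted p = 0.0135). Its promoter is one of those holding AGGTCA on the other strand, 119 bases before the start site.

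Slc25a13, the aspartate-glutamate carrier of liver known as citrin, was highest in control at 398, 477, 394 and 421 CPM. Ppara KO livers had 162, 150, 105 and 114 CPM, 3.18-fold lower (adjusted p = 0.000274), or log2 -1.63 without replicates 2 and 3. It was also lower in Cpt2L-/- (240 to 334 CPM, log2 -0.56 ± 0.12, adjusted p = 0.00196) and in DKO (220 to 280 CPM, log2 -0.78 ± 0.12, adjusted p = 9.22e-05). Slc25a12, the second carrier of this kind, was called in 0 comparisons, with group means of 28.1 to 39.3 CPM.

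Slc25a10, the dicarboxylate carrier that exchanges malate and succinate for phosphate, was lower in 3 of the 4 groups compared with control. Control had 247, 213, 284 and 252 CPM, Tsc1L-/- 170, 174, 149 and 174, DKO 135, 135, 128 and 104, and Ppara KO 72.2, 182, 126 and 77.6. The differences were -0.58 ± 0.15, -1.0 ± 0.15 and -1.12 ± 0.29 (log2), with adjusted p = 0.0263, 6.88e-05 and 0.0174, and the first was lost in 5 of 13 alternatives. Without Ppara KO replicates 2 and 3 the Ppara KO difference was -1.75 ± 0.18 (adjusted p = 0.000703). Cpt2L-/- was at 159 to 287 CPM, and DKO was 1.77-fold below it (adjusted p = 0.00155, but 0.052 with all 24 libraries in the fit).

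Slc25a21, the oxoadipate carrier of lysine and tryptophan breakdown, was lower than control in all 4 groups compared with it. Control had 14.6, 16.6, 17.7 and 19.7 CPM, and no library of Tsc1L-/-, Cpt2L-/-, DKO or Ppara KO exceeded 11.9 CPM. The log2 differences were -0.63, -0.89, -1.01 and -0.92 in that order (adjusted p = 0.0177, 0.000284, 7.25e-05 and 0.00562), the first was lost in 2 of 13 alternatives, and the last was -0.83 without Ppara KO replicates 2 and 3. Slc25a11, the oxoglutarate carrier of the malate-aspartate shuttle, was lower only in Ppara KO among the comparisons run (log2 -0.61 ± 0.14, adjusted p = 0.0108). Slc25a1, the citrate carrier that supplies acetyl units to lipid synthesis, went from 182 to 220 CPM in control to 227 to 312 CPM in DKO (adjusted p = 0.0194, lost in 3 of 13 alternatives) and to 104 to 161 CPM in Ppara KO (adjusted p = 0.0269, lost in 5 of 14 alternatives). DKO exceeded Cpt2L-/- by 1.56-fold in Slc25a1 (adjusted p = 0.00121).

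Slc25a23, a calcium-regulated carrier of ATP-Mg and phosphate, was lower than control in Cpt2L-/-, DKO and Ppara KO. Control livers had 241, 194, 229 and 173 CPM and Tsc1L-/- livers 167, 202, 302 and 223 CPM. Cpt2L-/- livers had 52.7, 57.8, 73.4 and 56.1 CPM and DKO livers 62.4, 56.7, 48.4 and 52.2 CPM. Ppara KO was at 78.9, 52.6, 54.7 and 73.7 CPM, and Cpt2L-/- Ppara KO at 25, 57.7, 96.9 and 79.4 CPM. No library outside control and Tsc1L-/- reached 100 CPM. The log2 differences from control were -1.83 ± 0.17 in Cpt2L-/-, -1.94 ± 0.17 in DKO and -1.70 ± 0.19 in Ppara KO (adjusted p = 9.71e-07, 2.92e-07 and 0.000262), and -1.47 ± 0.20 for Ppara KO without replicates 2 and 3. Its relative Slc25a24 rose in Cpt2L-/- to 2.84 to 5.91 CPM from 1.15 to 2.83 CPM (adjusted p = 0.0136), and Slc25a25 was called in no pairwise comparison.

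**Figure D3:**
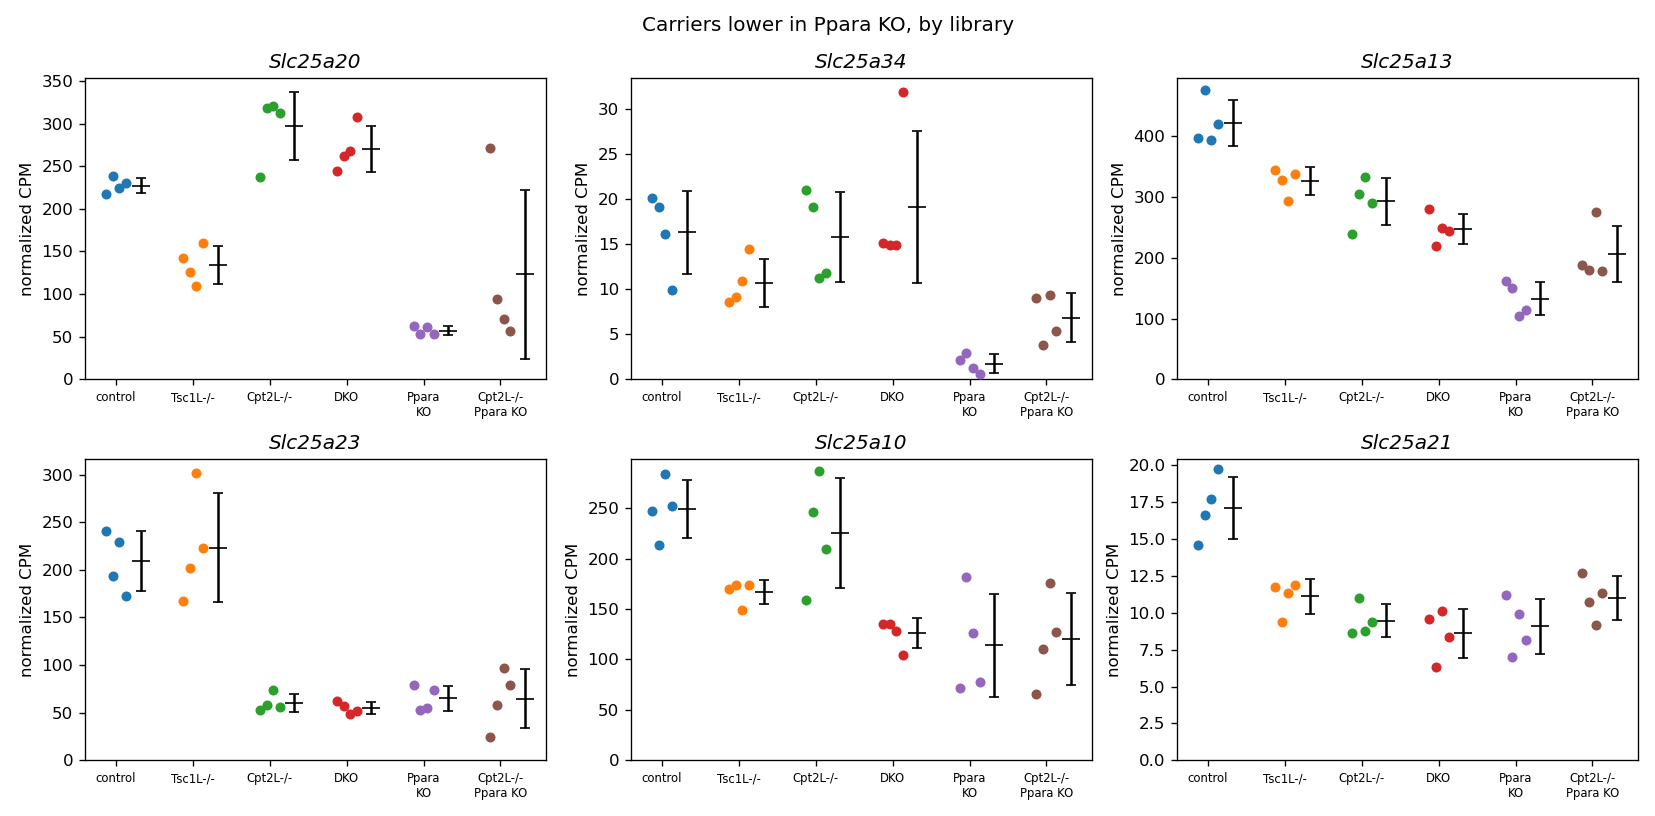
Normalized CPM per library (points) with group mean and SD for 6 carriers lower in Ppara KO than in control. Slc25a20 shows the Cpt2L-/- Ppara KO library at 271 CPM apart from the other 3, and Slc25a23 is low in every group but control and Tsc1L-/-.

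Slc25a4 and Slc25a5, adenine nucleotide translocases that exchange ADP for ATP, were higher in DKO than in control. Slc25a4, the form dominant in heart and muscle, was at 5.59, 7.7, 9.5 and 6.3 CPM in control and at 5.02, 6.91, 6.2 and 5.28 in Cpt2L-/-. DKO livers had 40.7, 31.8, 28.5 and 44.6 CPM, 6.30-fold above Cpt2L-/- (log2 2.66 ± 0.32, adjusted p = 9.75e-05) and 4.97-fold above control (adjusted p = 4.17e-05). Tsc1L-/- livers were uneven, at 19.9, 26.5, 7.57 and 10.3 CPM, and their call against control (adjusted p = 0.0383) was lost in 7 of 13 alternatives. Muscle markers summed to at most 0.136 CPM in Tsc1L-/- and 0.114 CPM in DKO, and the part of muscle in the Slc25a4 values was not tested.

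Slc25a5 was at 543, 508, 445 and 439 CPM in control, 625, 752, 657 and 617 in Tsc1L-/- and 700, 791, 804 and 793 in DKO, with no overlap of the last 2 groups with control. It was 1.37-fold higher in Tsc1L-/- (adjusted p = 0.0344, lost in 6 of 13 alternatives) and 1.58-fold higher in DKO (adjusted p = 0.000459). Cpt2L-/- Ppara KO livers, at 794, 819, 706 and 517 CPM, overlapped DKO. Per length Slc25a5 stayed far above Slc25a4, at 664 against 20.3 FPKM in DKO. Slc25a3, which carries phosphate and copper, was 1.38-fold higher in DKO than in control (adjusted p = 0.0155, lost in 2 of 13 alternatives). In a list of 8 genes of carrier import into the inner membrane, 3 were higher and 0 lower in DKO against Cpt2L-/-, beside 10.9% and 7.40% of all genes. They were Timm22, the carrier translocase channel, at log2 0.62, Timm13 at 0.51 and Timm8a1 at 0.35. In Tsc1L-/- against control 0 of the 8 were called, where 4.16% of all genes were higher and 2.48% lower.

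Among amino acid carriers, Slc25a15, which exchanges ornithine and citrulline for the urea cycle, was lowest in DKO. Control livers had 611, 736, 336 and 361 CPM, Cpt2L-/- 248, 441, 325 and 330, and DKO 170, 120, 203 and 161. DKO was 3.15-fold below control (log2 -1.66 ± 0.25, adjusted p = 9.41e-05), 2.03-fold below Cpt2L-/- (adjusted p = 0.0102) and 2.37-fold below Tsc1L-/- (adjusted p = 0.00118). Cpt2L-/- Ppara KO, at 499, 930, 1160 and 569 CPM, was 2.34-fold above Cpt2L-/- (adjusted p = 0.0275, lost in 5 of 13 alternatives), and without replicate 1 by log2 1.40 ± 0.25 (adjusted p = 0.00233). Of 6 urea cycle enzymes tested, 4 were lower and 0 higher in DKO against Tsc1L-/-, beside 15.2% and 16.9% of all genes. Ass1 was lower by 1.60, Asl by 1.55, Nags by 1.18 and Otc by 1.06 on the log2 scale. DKO against control gave 3 lower and 0 higher, beside 17.1% and 19.3% of all genes. In DKO against Cpt2L-/- 0 were lower and 1 was higher, Otc at log2 0.73, beside 7.40% and 10.9% of all genes. In DKO the summed hepatocyte markers were also at their lowest, 27500 to 35200 CPM.

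Slc25a38, the glycine carrier of heme synthesis, was 1.91-fold lower in Cpt2L-/- than in control (7.73 to 16.2 against 21.5 to 32.5 CPM, adjusted p = 0.00121). Slc25a18, a glutamate carrier of low level, was at 0.945 to 1.53 CPM in Cpt2L-/- and at 0.203 to 0.713 CPM in control. In counts these were 16 to 27 and 3 to 12. It passed the filter on low counts through the Cpt2L-/- and DKO libraries, so a test of it adds nothing to these values. Slc25a40, the relative of Slc25a39, was 2.10-fold higher in Cpt2L-/- Ppara KO than in Cpt2L-/-, at 12.9, 8.49, 10.4 and 7.46 against 5.34, 5.13, 3.72 and 4.32 CPM (adjusted p = 0.0147, lost in 2 of 13 alternatives), and without replicate 1 by log2 0.92 ± 0.21 (adjusted p = 0.0115). Slc25a39 itself, and the glutamate carrier Slc25a22, were called in 0 comparisons. Slc25a44, which carries branched-chain amino acids, was called in 4 comparisons with log2 values of -0.46 to 0.44, most of them lost in several alternatives.

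Slc25a48, reported to move choline, was at 13.3, 19, 17.2 and 9.95 CPM in control and 22.4, 27.7, 23 and 17.6 in Tsc1L-/-. DKO livers had 5.76, 5.62, 4.76 and 3.74 CPM, 4.58-fold below Tsc1L-/- (log2 -2.20 ± 0.26, adjusted p = 9.07e-06) and 3.01-fold below control. Cpt2L-/- livers had 6.03, 11.3, 15.5 and 10 CPM, 2.13-fold above DKO (adjusted p = 0.00791). Slc25a45 was lower than control in Cpt2L-/- and DKO, at 3.75 to 7.61 CPM in Cpt2L-/- and 3.42 to 5.03 in DKO, against 12.6 to 15.3 in control (log2 -1.52 ± 0.24 and -1.77 ± 0.24, adjusted p = 0.000129 and 2.47e-05), and Cpt2L-/- Ppara KO was at 3.55 to 8.61 CPM.

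**Figure D4:**
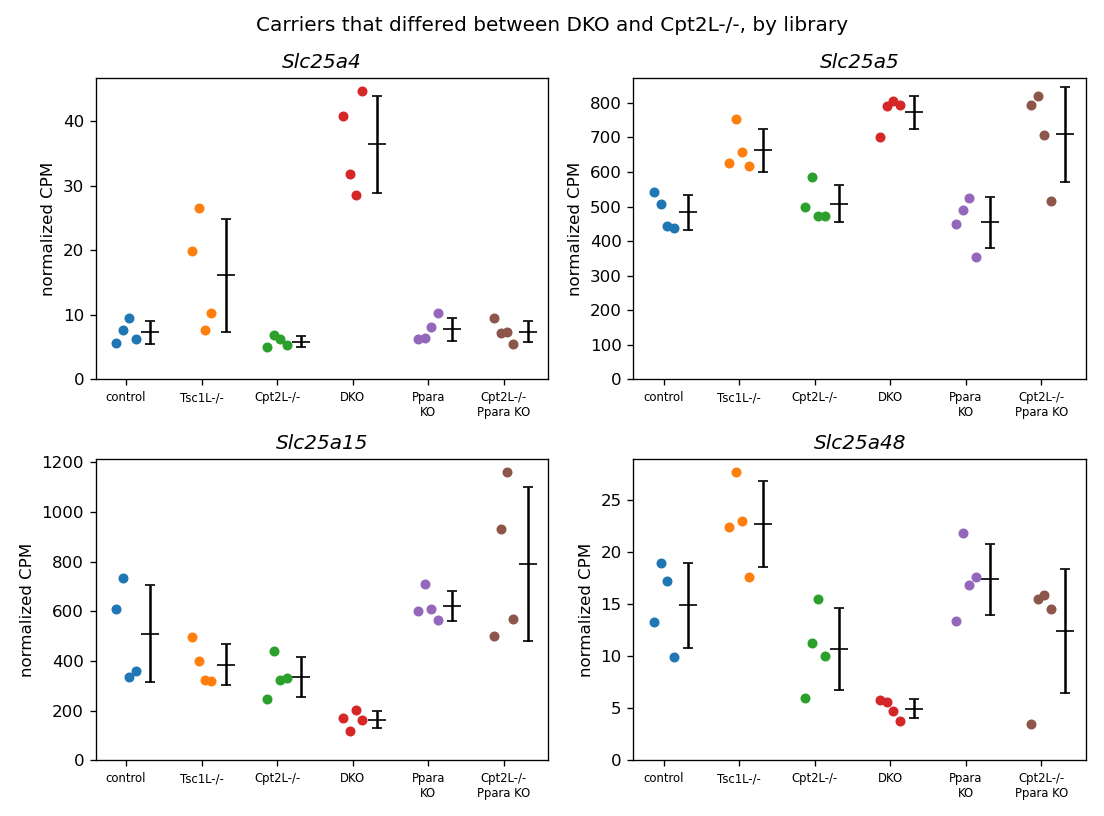
Normalized CPM per library (points) with group mean and SD for 4 carriers that differed between DKO and Cpt2L-/-. Slc25a4 and Slc25a5 are higher in DKO than in control and Cpt2L-/-, and Slc25a15 and Slc25a48 have low DKO libraries, at 120 to 203 and 3.74 to 5.76 CPM.

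Slc25a47, reported to act in mitochondrial NAD handling, was at 818, 935, 993 and 893 CPM in control. Cpt2L-/- livers had 2200, 1990, 1580 and 2200 CPM and DKO livers 1240, 1440, 1450 and 1710 CPM, 2.15-fold and 1.60-fold above control (adjusted p = 0.000258 and 0.00928), the second lost with all 24 libraries in the fit (adjusted p = 0.223). Ppara KO livers split, at 1170, 5710, 3380 and 901 CPM. The Ppara KO call (log2 1.63, adjusted p = 0.0405) was lost without replicates 2 and 3 (log2 0.17, adjusted p = 0.58). The same 2 libraries were high in Slc25a51, which carries NAD into mitochondria, at 1220 and 701 against 109 and 72.2 CPM, and in Slc25a29, a carrier of basic amino acids, at 25.3 and 16 against 6.39 and 4.88 CPM. Slc25a29 was called higher in Ppara KO (log2 1.77, adjusted p = 0.0231) and not without those libraries (log2 0.54, adjusted p = 0.22). Slc25a29 and Slc25a47 lie 15246 bases apart on chromosome 12, on opposite strands. The summed CPM of 4 cholangiocyte markers was 12.6 to 28.9 in Ppara KO against 4.74 to 9.86 in control, mostly from Sox9, at 7.54, 25.1, 26 and 5.63 CPM in Ppara KO. Means of the other 3 in Ppara KO and control were 1.14 and 1.57 CPM for Krt19, 1.75 and 2.01 for Epcam, and 1.82 and 0.736 for Krt7, which reached 5.01 CPM in Ppara KO replicate 4. Their part in these values was not tested.

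Slc25a28, an iron importer known as mitoferrin 2, was higher in Cpt2L-/- (45 to 51.1 CPM against 23.9 to 32, adjusted p = 0.000388), in DKO (39.4 to 41.3 CPM, adjusted p = 0.00385, but 0.0862 with all 24 libraries in the fit) and in Ppara KO. Ppara KO livers had 38.8, 98.1, 99.5 and 65.3 CPM, 2.77-fold over control (adjusted p = 0.00457), and log2 1.47 became 0.92 without replicates 2 and 3 (adjusted p = 0.0181). Slc25a37, mitoferrin 1, was called in 0 comparisons. Slc25a33, a pyrimidine nucleotide carrier, was 1.72-fold higher in DKO than in control, at 43, 32.8, 42.1 and 32.4 against 24.1, 24.9, 20.3 and 17.4 CPM (adjusted p = 0.000718). Ppara KO livers, at 27.2, 34, 37.6 and 39.6 CPM, were 1.59-fold over control (adjusted p = 0.0184, lost in 4 of 14 alternatives), and without replicates 2 and 3 the difference was log2 0.61 ± 0.21 (adjusted p = 0.0686).

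Slc25a42 brings coenzyme A into mitochondria. It was at 145, 145, 156 and 99 CPM in Cpt2L-/- and at 34.6, 46, 95 and 60.1 CPM in Cpt2L-/- Ppara KO, 2.32-fold lower (adjusted p = 0.0259, lost in 4 of 13 alternatives), or log2 -1.02 ± 0.24 (adjusted p = 0.0126) without replicate 1. In Ppara KO it ran from 30.1 to 156 CPM and was called against control only without replicates 2 and 3 (log2 -1.71, adjusted p = 0.00334). In a list of 8 coenzyme A synthesis genes, 4 were lower in Ppara KO and 0 higher, beside 12.7% and 14.8% of all genes. They were Ppcs at log2 -1.45, Pank1 at -1.02, Coasy at -0.91 and Pank3 at -0.65. Without replicates 2 and 3, where 2841 of all 13609 genes were called, Ppcs and Pank1 were called. Coasy (adjusted p = 0.0604) and Pank3 (adjusted p = 0.0908) were not. Slc25a35, a gene at 3.05 CPM or less in every library, was at 0.0591 to 0.48 CPM in Cpt2L-/- and 0.675 to 1.31 CPM in control. Pooled counts, 64 in control and 17 in Cpt2L-/-, had a ratio of 3.8 on the CPM scale. Its 95% exact interval, 2.2 to 6.92, covers counting error only. DKO livers had 0.802 to 1.6 CPM. Slc25a35 passed the filter on low counts through the groups where it was higher, so its tests against Cpt2L-/- add nothing to these values.

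**Figure D5:**
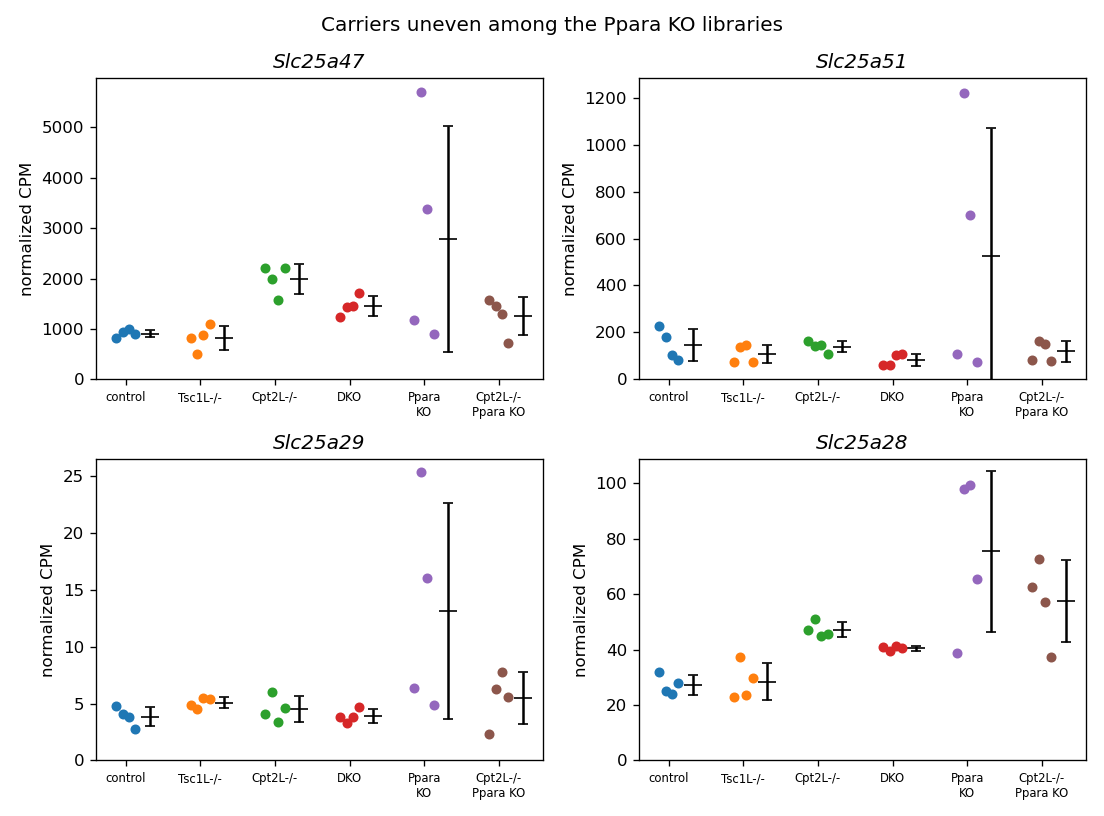
Normalized CPM per library (points) with group mean and SD for 4 carriers uneven among the Ppara KO libraries, with bars that pass below 0 ended at the axis. In Slc25a47, Slc25a51 and Slc25a29, Ppara KO replicates 2 and 3 lie above the other Ppara KO libraries, at 5710 and 3380 CPM in Slc25a47.

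Whether the effects of 2 deletions add on the log2 scale was tested as an interaction. For Tsc1 and Cpt2 loss, 1 member was called higher and 1 lower, beside 1.09% and 1.28% of all genes tested. Slc25a48 fell more in DKO than the separate effects add up to (log2 -1.70 ± 0.35, adjusted p = 0.018), and Slc25a1 rose more (log2 0.74 ± 0.16, adjusted p = 0.0215). The first was lost in 1 and the other in 4 of 21 alternatives, both of them with all 24 libraries in the fit (adjusted p = 0.117 and 0.162). For Cpt2 and Ppara loss, 8 were higher and 4 lower, beside 12.0% and 12.0% of all genes. Slc25a23 had an interaction of log2 1.81 ± 0.41 (adjusted p = 0.00532), with a fall in each separate loss and no further fall in the combined one. Slc25a13, Slc25a21, Slc25a34 and Slc25a40 were also called higher in every alternative fit, at 1.17, 1.14, 2.02 and 1.20 (log2). The 4 lower ones were Slc25a47, Slc25a18, Ucp2 and Slc25a28, and without Ppara KO replicates 2 and 3 none of these 4 was called, their values of -2.28, -1.77, -1.35 and -1.18 becoming -0.83, -1.07, -0.67 and -0.64 (log2). In that fit 8 were called higher, namely Slc25a1, Slc25a13, Slc25a16, Slc25a21, Slc25a23, Slc25a34, Slc25a38 and Slc25a40, and Slc25a25 and Slc25a35 were lost. Calls over all genes in that fit were 2628 of 14267, against 3270 of 13615 with every library. Without Cpt2L-/- Ppara KO replicate 1 there were 9 higher and 3 lower, where 3096 of 13895 genes were called.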

How the data were processed

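Total RNA of 24 fasted mouse livers was sequenced by the authors as stranded mRNA libraries with 75-base reads. The authors deposited whole-number read counts per gene without normalization, for 35275 genes, and FPKM values deposited beside them equal those counts divided by gene length and library total. The processing notes of the submitters name STAR 2.5, HTSeq 0.6.1, Bowtie 0.12.2, TopHat, DESeq2 and edgeR, and the builds mm8 and mm9, with no roles. Coordinates in the files are GRCm38: of 34490 genes shared with GENCODE M21, 34473 are on the same chromosome. The counting strand setting is not given in the sources used here, so reads of overlapping genes, pseudogenes and paralogs can be split.

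Counts were tested in R 4.3.3 with edgeR 4.0.16, with filterByExpr (minimum count 10, minimum total 15), TMM, the robust quasi-likelihood fit and Benjamini-Hochberg adjustment over all genes tested. Control, Tsc1L-/-, Cpt2L-/- and DKO entered 1 fit of 16 libraries. Each pairwise Ppara comparison was a fit of 8 libraries, and the interaction of Cpt2 and Ppara loss a fit of 16. The comparisons with control share control libraries. The method was tested on counts simulated for Cpt2L-/- against control in the fit of 16 libraries. There edgeR called 13% of changes of log2 0.5, 60.7% of log2 1 and 91.7% of log2 2, with 3 false among 105 calls. DESeq2 had 15 false among 124 calls. The fits of 8 libraries were not simulated. A member without a call may therefore still differ. CPM used TMM factors over the 24 libraries. Pooled ratios have exact binomial intervals, which cover counting error only. The labels do not say that replicates are separate mice, so p-values measure the spread between these samples. Of 36 within-group pairs none was a duplicate.

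Members named with full values are, per comparison and direction, the 3 largest calls with no overlap and a mean of at least 1 CPM, plus Slc25a20, Slc25a47, Slc25a13, Slc25a15, Slc25a5, Slc25a3 and Ucp1 to Ucp3. Other members are named with their role, with their values already known. Members and lists were chosen with earlier results of these data known. Alternatives were RLE size factors, no filter, DESeq2 1.42.0, a replicate block, all 24 libraries in the fit and leaving out each library. Leaving out Ppara KO replicates 2 and 3 together was chosen after seeing the data.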

Additional observations from a re-analysis of the deposited data

Results flagged for a closer look

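In a check of the 4 libraries of each group for the members named in full, 9 of 134 groups had 1 library far from the other 3 (Dixon's ratio above its 95% critical value), and chance flags about 1 in 20 groups. In CPM, the libraries were Tsc1L-/- replicate 3 for Slc25a10 (149), Cpt2L-/- Ppara KO replicate 3 for Slc25a13 (275), DKO replicate 2 for Slc25a18 (1.58), Cpt2L-/- replicate 1 for Slc25a20 (237) and control replicate 3 for Slc25a30 (91.1). The others were DKO replicate 4 for Slc25a34 (31.8), DKO replicate 1 for Slc25a35 (1.6), Cpt2L-/- Ppara KO replicate 1 for Slc25a48 (3.48) and DKO replicate 1 for Slc25a5 (700). The call of Slc25a34 in DKO against Tsc1L-/- (adjusted p = 0.0467) was lost in 8 of 13 alternatives, among them the fit without DKO replicate 4 (adjusted p = 0.202).

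The effect of Cpt2 loss differed with Tsc1 status, by the interaction term, for Slc25a1 (log2 0.744) and Slc25a48 (log2 -1.696). With Ppara status it differed upward for Slc25a1 (0.733), Slc25a13 (1.166), Slc25a35 (2.938), Slc25a25 (1.486), Slc25a21 (1.141), Slc25a34 (2.019), Slc25a23 (1.809) and Slc25a40 (1.197). It differed downward for Slc25a18 (-1.766), Ucp2 (-1.35), Slc25a28 (-1.18) and Slc25a47 (-2.283), which became -1.07, -0.668, -0.642 and -0.834 without Ppara KO replicates 2 and 3. Over 22 alternatives the call with Ppara status was lost in 16 for Slc25a18, 15 for Slc25a25, 10 for Slc25a1, 4 each for Slc25a35 and Ucp2, 2 for Slc25a28 and 1 for Slc25a47, and that with Tsc1 status in 4 of 21 for Slc25a1 and 1 of 21 for Slc25a48. Slc25a35 is near the floor in several groups, so its fitted value is uncertain.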

How the results depend on the processing

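Over the alternatives no called member changed direction. Counts of members called moved by more than 1.5 times as follows, and the cause was not tested. For Tsc1L-/- against control, 6 became 3 with no filter and 2 with all 24 libraries in the fit, where calls over all genes went from 906 of 13641 to 776 of 22289 and 400 of 13987. For DKO against Tsc1L-/-, 21 became 12 with all 24 libraries, and all genes went from 4392 of 13641 to 2975 of 13987. For Cpt2L-/- Ppara KO against Cpt2L-/-, 6 became 11 in DESeq2 and 14 with all 24 libraries, and all genes went from 1679 of 12936 to 2847 of 12936 and 3239 of 13987. For Cpt2L-/- Ppara KO against Ppara KO, 0 became 2 with no filter, 4 in DESeq2, 2 with the replicate block and 16 with all 24 libraries, where calls over all genes went from 111 of 12784 to 368 of 21773, 2028 of 12784, 916 of 12784 and 4311 of 13987. The interaction of Tsc1 and Cpt2 loss went from 2 to 4 in DESeq2 and 0 with all 24 libraries, and all genes from 324 of 13641 to 752 of 13641 and 65 of 13987. Leaving out 1 library gave 1 to 6 calls for Tsc1L-/- against control (1 without control replicate 4, with 605 of all 13860 genes), 8 to 17 for Ppara KO against control (8 without control replicate 4, with 2321 of all 13179, and 17 without Ppara KO replicate 1, with 4177 of all 13189), 2 to 12 for Cpt2L-/- Ppara KO against Cpt2L-/- (2 without Cpt2L-/- replicate 3, with 625 of all 13166, and 12 without Cpt2L-/- Ppara KO replicate 1), 0 to 1 for Cpt2L-/- Ppara KO against Ppara KO, 1 to 3 for the interaction of Tsc1 and Cpt2 loss and 7 to 15 for that of Cpt2 and Ppara loss. In these fits calls over all genes ran from 583 to 967, 2321 to 4177, 625 to 2541, 2 to 725, 150 to 403 and 2396 to 3767 in that order. Replicate numbers did not pair the samples: deviations of same-numbered libraries correlated at -0.261 to 0.177. With the replicate block, members called went from 6 to 4 in Tsc1L-/- against control (all genes from 906 to 808), stayed at 17 in Cpt2L-/- against control (4235 to 4033), and went from 21 to 24 in DKO against control (4972 to 4781), 11 to 9 in DKO against Cpt2L-/- (2494 to 2333), 21 to 20 in DKO against Tsc1L-/- (4392 to 4180), 13 to 11 in Ppara KO against control (3559 to 2915), 6 to 9 in Cpt2L-/- Ppara KO against Cpt2L-/- (1679 to 2156) and 12 to 10 in the interaction of Cpt2 and Ppara loss (3270 to 3307). At this depth Ucp1, Slc25a31 and other members near 0 counts could not be compared.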
